A study of Homo sapiens with 8 samples.

Results

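The acetylated regions of chromosome 18 were chosen by position from 2 peak lists of H3K27ac, 1 from control cells and 1 from ARID1A knockout cells. Peaks of both lists that overlapped by at least 1 bp were merged. The merge gave 937 regions, 1.93% of the 48662 on chromosomes 1 to 22 and X. A region was called shared where it held peaks of both lists, and control-only or knockout-only where it held peaks of 1 list. Classes were therefore defined by the peak calls themselves, and their numbers are given as a description, with no test.

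The study profiled acetylation of lysine 27 on histone H3 by ChIP-seq, sequencing of immunoprecipitated chromatin, in MDA-MB-231 cells, a widely used breast cancer line that lacks hormone receptors and HER2 and has a mesenchymal, basal-like character. Its 8 libraries formed 4 groups of 2: immunoprecipitate and input from the control genotype, and immunoprecipitate and input from the ARID1A knockout genotype. The labels named no treatment or time. The labels used here did not state how the knockout was made, whether it was a clone or a pool, or whether replicates were separate cultures, and an acetylation peak list cannot check the loss of ARID1A. The sample characteristics named an antibody to H3K27ac for the immunoprecipitates, whereas the extraction protocol named one to H3K4me3, and this conflict could not be settled from the sources used here. Because each genotype had a single list, no spread between replicates could be measured and no p-value was computed for any difference. In such bulk chromatin, weak acetylation in all cells and strong acetylation in some of them cannot be told apart.

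H3K27ac is laid down by the acetyltransferases p300 and CBP on nucleosomes beside active promoters and enhancers. ARID1A binds DNA as part of the BAF form of the SWI/SNF remodelling complex, which moves nucleosomes and is found at many enhancers. Chromosome 18 is a gene-poor chromosome that carries SMAD2, SMAD4 and SMAD7 of TGF-beta signalling, the desmosomal cadherins, a cluster of clade B serpins, BCL2 and the E protein gene TCF4. E proteins are basic helix-loop-helix factors that bind E-boxes.

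The sequences that bear most on the findings are those before the gene starts that had peaks in 1 list alone. They were taken from RefSeq on GRCh38.p14 as the 250 bases before an annotated start, written 5′ to 3′ on the strand of the gene. TCF4, on the minus strand, had 10 annotated starts. Of these, 6 lay within 1 kb of a knockout-only region and 4 lay inside one, and the first 4 sequences are those. The fifth lies before the TCF4 start with the most CpG dinucleotides, which had no peak in either list within 1 kb. The sixth lies before SERPINB5, on the plus strand, which had a knockout-only region within 1 kb of its start but not over it. The seventh lies before the outermost start of LDLRAD4, on the plus strand, which had a control-only region. Capitals mark matches to the motifs given after the sequences.

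TCF4 start at 55401688 (chr18:55401689-55401938): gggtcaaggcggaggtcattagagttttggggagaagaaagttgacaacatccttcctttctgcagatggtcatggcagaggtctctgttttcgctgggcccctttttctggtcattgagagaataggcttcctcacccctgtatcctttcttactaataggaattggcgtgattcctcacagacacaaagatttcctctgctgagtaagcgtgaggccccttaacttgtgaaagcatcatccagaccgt

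TCF4 start at 55403995 (chr18:55403996-55404245): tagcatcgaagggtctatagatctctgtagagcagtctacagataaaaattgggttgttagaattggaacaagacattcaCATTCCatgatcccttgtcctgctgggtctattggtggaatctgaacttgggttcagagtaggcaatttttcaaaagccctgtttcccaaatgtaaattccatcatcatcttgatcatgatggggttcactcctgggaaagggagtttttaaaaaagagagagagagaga

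TCF4 start at 55422297 (chr18:55422298-55422547): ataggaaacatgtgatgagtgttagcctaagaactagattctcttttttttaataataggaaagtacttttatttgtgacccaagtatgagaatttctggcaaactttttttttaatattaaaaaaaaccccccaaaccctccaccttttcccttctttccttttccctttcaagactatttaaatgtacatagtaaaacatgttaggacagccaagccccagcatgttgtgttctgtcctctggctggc

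TCF4 start at 55510772 (chr18:55510773-55511022): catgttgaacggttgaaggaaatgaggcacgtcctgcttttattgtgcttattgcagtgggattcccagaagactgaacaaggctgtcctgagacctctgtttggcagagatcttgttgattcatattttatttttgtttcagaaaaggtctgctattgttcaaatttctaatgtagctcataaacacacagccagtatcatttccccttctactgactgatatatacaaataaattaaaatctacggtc

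TCF4 start at 55589811 (chr18:55589812-55590061): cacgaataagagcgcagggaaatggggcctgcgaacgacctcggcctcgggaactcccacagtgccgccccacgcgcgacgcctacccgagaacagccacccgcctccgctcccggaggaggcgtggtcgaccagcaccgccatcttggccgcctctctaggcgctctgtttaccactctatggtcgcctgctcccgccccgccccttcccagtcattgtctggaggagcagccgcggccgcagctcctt

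SERPINB5 start at 63476958 (chr18:63476708-63476957): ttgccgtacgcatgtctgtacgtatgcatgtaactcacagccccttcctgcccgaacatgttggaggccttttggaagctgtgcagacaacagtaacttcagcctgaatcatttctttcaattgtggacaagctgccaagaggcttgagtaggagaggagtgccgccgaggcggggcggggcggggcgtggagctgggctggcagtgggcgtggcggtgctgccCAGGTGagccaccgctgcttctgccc

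LDLRAD4 start at 13217682 (chr18:13217432-13217681): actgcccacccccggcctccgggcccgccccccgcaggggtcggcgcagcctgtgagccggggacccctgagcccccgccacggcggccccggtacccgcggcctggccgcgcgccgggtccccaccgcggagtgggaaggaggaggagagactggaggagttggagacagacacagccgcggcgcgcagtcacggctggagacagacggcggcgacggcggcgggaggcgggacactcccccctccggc

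The 4 sequences from inside the knockout-only regions of TCF4 held 5, 1, 0 and 3 CpG dinucleotides and had GC contents of 48%, 40.8%, 36% and 38%. The fifth sequence held 26 CpG dinucleotides at 68% GC. It is 1 of 4 TCF4 starts with no peak within 1 kb, and the other 3 held 2, 16 and 8 CpG dinucleotides. Over all 35114 promoters in the RefSeq table the median was 11 CpG dinucleotides, with quartiles of 3 and 23, and the median GC content was 58%. The TCF4 starts at 55321841 and 55635957, within 1 kb of a knockout-only region but outside it, held 18 and 2. CpG content therefore did not separate the TCF4 starts with a peak from those without. SERPINB5 held 13 CpG dinucleotides and LDLRAD4 held 32.

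Matches were sought on both strands to AP-1 (TGACTCA or TGAGTCA), TEAD (GGAATG or CATTCC), ETS (CCGGAA or TTCCGG) and the E-box form CAGGTG or CACCTG, none of which contains another. The start at 55403995 held 1 TEAD match and SERPINB5 held 1 E-box match. The other 5 sequences held none of these letters in this window. Of all promoters of the same length, 4.20% held an AP-1 match, 11.9% a TEAD match, 14.5% an ETS match and 17.5% an E-box match. A match is a description of the letters and not a bound site.

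On chromosome 18 there were 717 control peaks over 1.4 Mb and 813 knockout peaks over 1.63 Mb. Sequencing depth was not given in the sources used here. The median pileup, the authors' fragment coverage value of a peak, was 16.5 for control and 21.9 for knockout peaks of chromosome 18, against 22.7 and 32.0 over all chromosomes. The median fold enrichment over the input background was 4.96 and 5.04. Fold enrichment is the authors' value and was read only within its own list. For cell type markers, 8 of 8 mesenchymal and basal ones, among them VIM, CD44 and AXL, had a peak within 1 kb of a start in both lists. So did 4 of 5 luminal markers (ESR1, GATA3, FOXA1 and KRT19, but not PGR). Of all coding genes 61.3% had such peaks, so these counts do not tell mesenchymal from luminal cells. Of 4 epithelial junction markers, EPCAM and CLDN4 had peaks in both lists, ESRP1 in 1 and CDH1 in neither, and none of 4 leukocyte markers had a peak.

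Of the 937 regions, 566 were shared, 60.4% with an exact 95% binomial interval of 57.2% to 63.6% that covers counting error only. Knockout-only regions numbered 235, or 25.1% (22.3% to 28.0%), beside 19.6% over all chromosomes. Control-only regions numbered 136, or 14.5% (12.3% to 16.9%), beside 14.7% over all chromosomes. The knockout list is the longer. With the 30000 peaks of highest −log10 q from each whole list, there were 108 knockout-only (17.7%) and 98 control-only regions (16.0%) among 611, beside 14.1% and 14.5% over all chromosomes. In the share of knockout-only regions chromosome 18 ranked 4th of 23 chromosomes, and in that of control-only regions 12th. Chromosome 13, with the highest share of knockout-only regions, had 29.1%, and the gene-rich chromosome 17 had 13%. Of the 235 knockout-only regions, 43 lay in 2 stretches described below. Without those, which were picked for holding no other class, the share was by construction lower, 192 of 894 or 21.5% (18.8% to 24.3%), and the other chromosomes were not treated in the same way.

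Genotype-only regions were smaller and weaker than shared ones. The median width was 2063 bp for shared, 691 bp for control-only and 759 bp for knockout-only regions, close to the 2135, 673 and 765 bp over all chromosomes. Median fold enrichment at shared regions was 5.83 among control and 6.45 among knockout peaks, against 3.09 for control-only and 3.32 for knockout-only regions. Expressed as a percentile of fold enrichment within the whole list, the median was 18.7 for control-only and 23.8 for knockout-only regions, against 55.4 and 57.7 for shared ones. The plot of cumulative strength shows both genotype-only classes crowded into the weak end of their lists, with 10.6% of knockout-only and 2.21% of control-only regions in the upper 50%, beside 7.57% and 4.22% over all chromosomes.

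**Figure D1:**
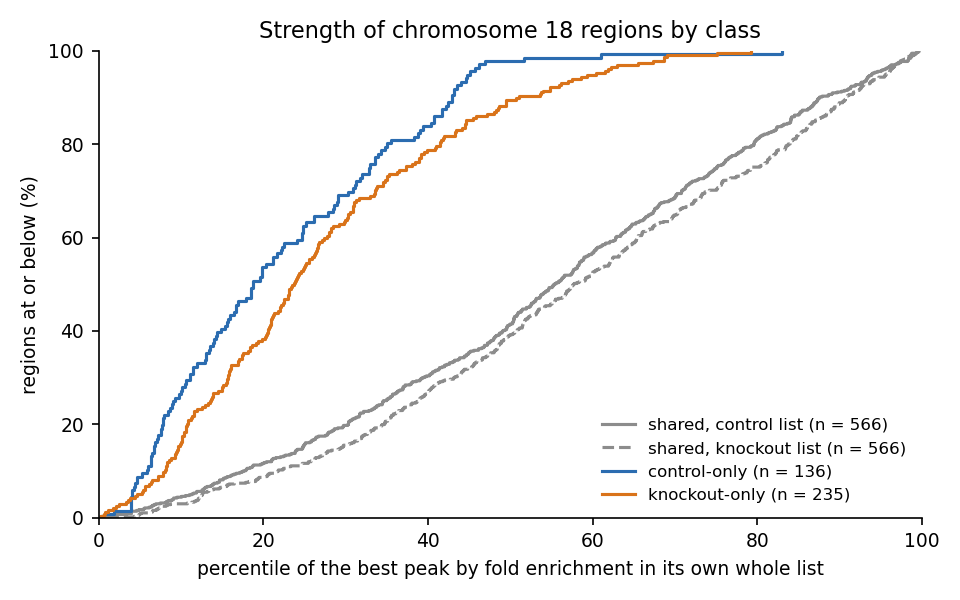
Cumulative share of chromosome 18 regions (vertical axis, %) by the percentile of their best peak in its own whole list, ranked by fold enrichment (horizontal axis), for shared regions in each list (grey, n = 566), control-only (blue, n = 136) and knockout-only regions (orange, n = 235). The genotype-only medians sit at percentiles 18.7 and 23.8, and those of shared regions at 55.4 and 57.7.

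A genotype-only region was called strong where its best peak ranked in the upper 50% of its list by fold enrichment, with none from the other list within 1 kb. Strong knockout-only regions numbered 25, 2.67% of regions beside 1.48% over all chromosomes. Strong control-only regions numbered 3, 0.320% beside 0.616%. Of the 25, 12 lay in the stretches around TCF4 and NETO1. The other 13 included a region in GAREM1 at fold 6.94, 1 in RAB31 at 6.0 and 1 near DSEL at 7.2, 273 kb from that gene.

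Few regions lay close to the overlap limit between classes, but many genotype-only ones were called at low −log10 q. Its median was 2.48 for control-only and 3.35 for knockout-only regions, with a lowest value of 1.05 in both. At shared regions the median was 10.8 among control and 17.5 among knockout peaks. The median overlap of the peaks in a shared region was 1409 bp, and 1 shared region, in DLGAP1 at chr18:3794226-3795497, overlapped by under 100 bp (10 bp). Next came shared regions in TNFRSF11A with 131 bp and TWSG1 with 142 bp. Just outside, 5 control-only and 2 knockout-only regions had a peak of the other list within 1 kb. They included 2 control-only regions in NEDD4L, at 23 and 999 bp from a knockout peak, 1 in SEH1L at 591 bp, and 1 region of each class in NPC1 that lay 704 bp apart. The fold enrichments of these 5 ranged from 2.57 to 3.65, at the weak end of their lists. Within 50 kb, a peak of the other list lay beside 157 knockout-only regions (66.8%) and 91 control-only regions (66.9%).

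A gene start lay within 1 kb of 164 shared regions (29.0%), 10 knockout-only regions (4.26%) and 4 control-only regions (2.94%), beside 35.4%, 3.76% and 5.07% over all chromosomes. Knockout-only regions lay mostly between protein-coding genes, 129 of 235 (54.9%, interval 48.3% to 61.4%, beside 48.5% over all chromosomes). Of these 129, 30 lay in the 2 stretches around TCF4 and NETO1. Control-only regions lay mostly in gene bodies, 80 of 136 (58.8%), and 38.2% of them lay between genes, beside 36.4% over all chromosomes. Of shared regions, 34.6% lay between genes, beside 31.1%. Of the 10 knockout-only regions at starts, 5 were in TCF4. The others were at SERPINB5 (5.83) and SERPINB10 (4.75), with fold enrichment in parentheses, and at further starts of PTPRM (3.96), SMAD7 (4.26) and SERPINB7 (3.33), genes that also had a shared region at a start. The 4 control-only ones were at LDLRAD4 (4.51) and ZNF521 (2.94) and at further starts of GNAL (4.69) and NEDD4L (3.01). Class, width and strength moved together, and their part in the difference of location was not tested.

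In 17 windows of 5 Mb, 15 held at least 10 regions and were compared. The fourth window, from 15 to 20 Mb around the centromere, held no region and no coding gene, and the last, from 80 Mb to the chromosome's end, held 5 regions. Knockout-only regions outnumbered control-only ones in 11 of the 15 windows, the reverse held in 2, and the numbers were equal in 2. The share of knockout-only regions had a median of 23.9% over the windows and ran from 11.1% to 59.6%.

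On the short arm the first window, from 0 to 5 Mb, was balanced, with 9 regions of each genotype-only class among 62. From 5 to 10 Mb, the window of PTPRM, MTCL1 and RAB31, 25 of 88 regions (28.4%) were knockout-only and 7 control-only. From 10 to 15 Mb, the most gene-dense window at 5.8 coding genes per Mb, 11 of 84 (13.1%) were knockout-only and 16 (19.0%) control-only. The intervals of these 2 shares, 6.72% to 22.2% and 11.3% to 29.1%, overlapped, so a lean of this window to the control list was not shown.

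On the long arm, the window from 20 to 25 Mb, with GATA6 and NPC1, had 26 knockout-only regions of 99 (26.3%) and 8 control-only. The window from 35 to 40 Mb stood at the other end, with 5 knockout-only regions of 45 (11.1%, interval 3.71% to 24.1%) and 14 control-only (31.1%, interval 18.2% to 46.6%). It holds CELF4 and the longest control-only run. The window from 55 to 60 Mb held the most regions, 130, with 42 knockout-only (32.3%) and 16 control-only. It contains the stretch around TCF4, NEDD4L, ZNF532 and MALT1.

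The window from 70 to 75 Mb had 28 knockout-only regions of 47 (59.6%, interval 44.3% to 73.6%) and no control-only region (interval 0% to 7.55%). Of the 28, 19 belonged to the stretch at NETO1. Among 552 windows of the genome with at least 20 regions it ranked 3rd, and the median window had 20.3%. Shifting all windows by 2.5 Mb put the highest share around TCF4 instead, from 52.5 to 57.5 Mb, with 30 knockout-only regions of 49 (61.2%) and no control-only region, while the window from 72.5 to 77.5 Mb had 36 of 64 (56.3%).

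**Figure D2:**
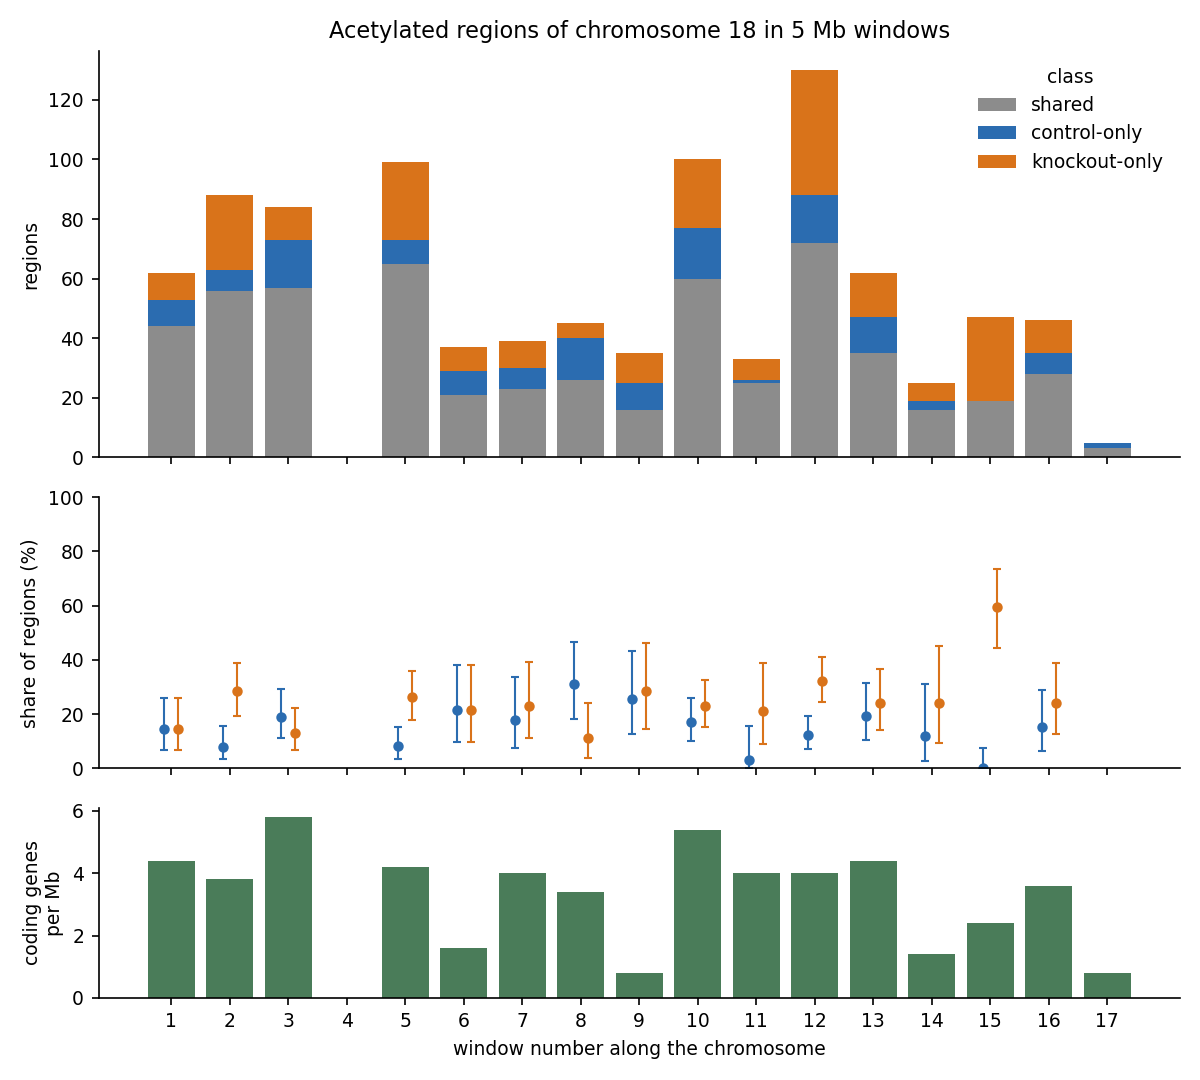
Regions of chromosome 18 in 5 Mb windows numbered from the short-arm end: counts by class (top), control-only and knockout-only shares in % with exact 95% binomial intervals in windows of at least 10 regions (middle), and protein-coding genes per Mb (bottom). Window 15 (70 to 75 Mb) has 59.6% knockout-only and no control-only region, and window 8 (35 to 40 Mb) has the highest control-only share, 31.1%.

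Gene density ran from 0.8 to 5.8 coding genes per Mb over the 15 windows. The knockout-only share was weakly and negatively related to it, with Pearson's r of −0.34 and Spearman's rho of −0.34 over 15 windows that share the same libraries. Leaving out each window in turn gave r between −0.41 and −0.25. The shared regions' fraction had r of 0.52 and the control-only share r of −0.10. Over 579 windows of all chromosomes, r for the knockout-only share was −0.44. These values describe the windows only. Regions per window ranged from 25 to 130, so the precision of a share differed between them.

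Pileup at shared regions was compared through the ratio of knockout to control pileup where each list had 1 peak. Its median was 1.57 over 543 regions of chromosome 18 and 1.55 over 30509 regions of all chromosomes, and the knockout value was higher in 476 of the 543. How the pileups were scaled to depth was not given in the sources used here, so only differences of this ratio between windows can be read. Window medians ran from 1.26 (40 to 45 Mb) to 1.87 (50 to 55 Mb). The window from 70 to 75 Mb had 1.8, above the chromosome's median, and that from 55 to 60 Mb had 1.52, just below it. In the window from 35 to 40 Mb, with the highest control-only share, the ratio was 1.3. Quartiles of neighbouring windows overlapped. Within the control list, the median peak pileup of the 15 windows ran from 9.25 (65 to 70 Mb) to 25.1 (35 to 40 Mb). The windows from 55 to 60 Mb and from 70 to 75 Mb hold the 2 longest runs described below. They had control medians of 12.1 and 14.6, below the chromosome's 16.5, and knockout medians of 17.6 and 18.4, below its 21.9. The parts of the pileup scale and of these local levels in the class of a region were not tested.

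**Figure D3:**
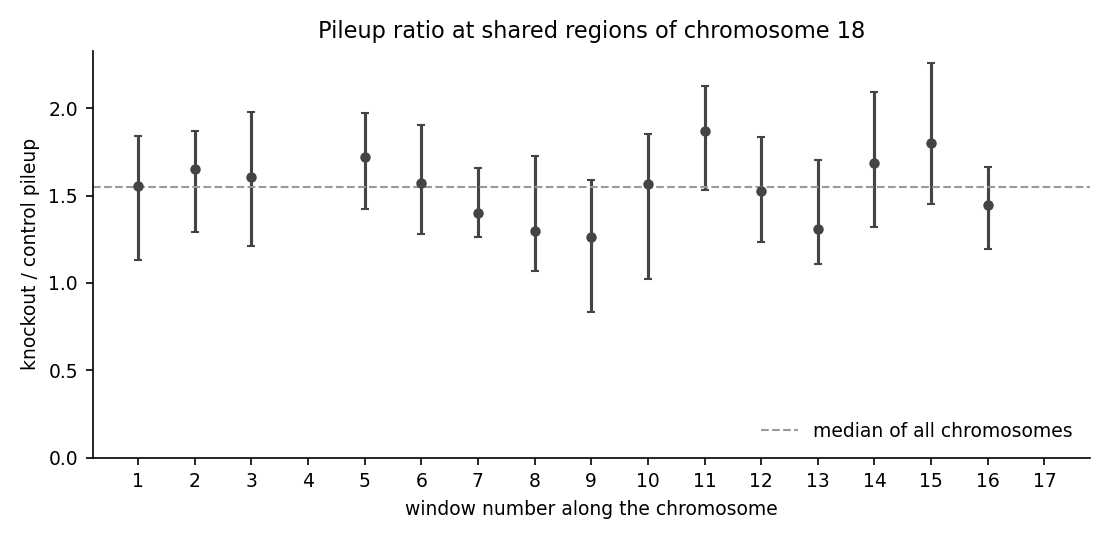
Knockout over control pileup at shared regions with 1 peak in each list, by 5 Mb window numbered from the short-arm end (windows with at least 10 such regions). Points are medians, bars span the quartiles over regions, and the dashed line is the all-chromosome median of 1.55. Window medians range from 1.26 to 1.87.

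Of the 235 knockout-only regions, 129 had a neighbouring region of the same class (54.9%, beside 46.5% over all chromosomes). Of the 136 control-only regions 57 did (41.9%), near the 40.2% over all chromosomes. A run was defined as at least 3 consecutive regions of 1 genotype-only class. Chromosome 18 had 11 knockout-only runs with 75 regions, 8.0% of its regions beside 4.62% over all chromosomes. It had 6 control-only runs with 29 regions, 3.09% beside 2.45%. Of the 75 regions in knockout-only runs, 43 lay in the 2 longest, which held 24 and 19. By the definition of a run, these 43 are also among the 129 with a neighbour of the same class. Both counts thus rest partly on the same 2 stretches. On the other 22 chromosomes the longest knockout-only run held 4 to 15 regions, with a median of 8.

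The run of 24 knockout-only regions spanned chr18:55018289-56403796, 1386 kb, and TCF4 was the only protein-coding gene in it. By the definition of a run, the control list had no peak anywhere in this stretch. The nearest region with a control peak lay 48.9 kb before it and 232 kb after it. The 24 regions covered 50.6 kb, with fold enrichments of 2.62 to 10.4, a median of 4.75 and −log10 q of at least 5 in 16. Their median lay above the 3.32 of all 235 knockout-only regions of the chromosome, which include these 24. Within TCF4, 10 regions were called. The strongest was a 14.4 kb domain at chr18:55499565-55513973 with fold 10.4 and pileup 38.8, at percentile 75.2 of its list, and it covers the TCF4 start at 55510772. Next were chr18:55419058-55422668 at fold 8.0 over the start at 55422297, and chr18:55397876-55406395, 8520 bp wide, at fold 5.89 over the starts at 55401688 and 55403995. These 3 regions cover the 4 starts whose sequences are printed above, and the start at 55589811 lay between regions.

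Upstream of the outermost TCF4 start, 13 regions lay between genes over the next 768 kb. Of these, 6 overlapped LOC105372130 and 1 overlapped LOC107985183, both long noncoding RNA genes. Their fold enrichments ran from 2.76 to 6.74, the highest at chr18:55981690-55982463, 346 kb from TCF4. The remaining region of the run, at fold 2.99, lay on the other side of the gene. In all, 14 annotated lncRNA genes overlapped the stretch, among them TCF4-AS1, LINC01415 and LINC01905. At the 5 shared regions before the stretch, near CCDC68 and RAB27B, the pileup ratio was 1.66 to 2.18, and at the 5 after it, near TXNL1, WDR7 and BOD1L2, it was 1.20 to 1.73. Control peaks at these flanks had folds of 2.95 to 10.4. Shared regions hold a control peak by definition, so these flanks do not test the absence of control calls in the stretch.

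**Figure D4:**
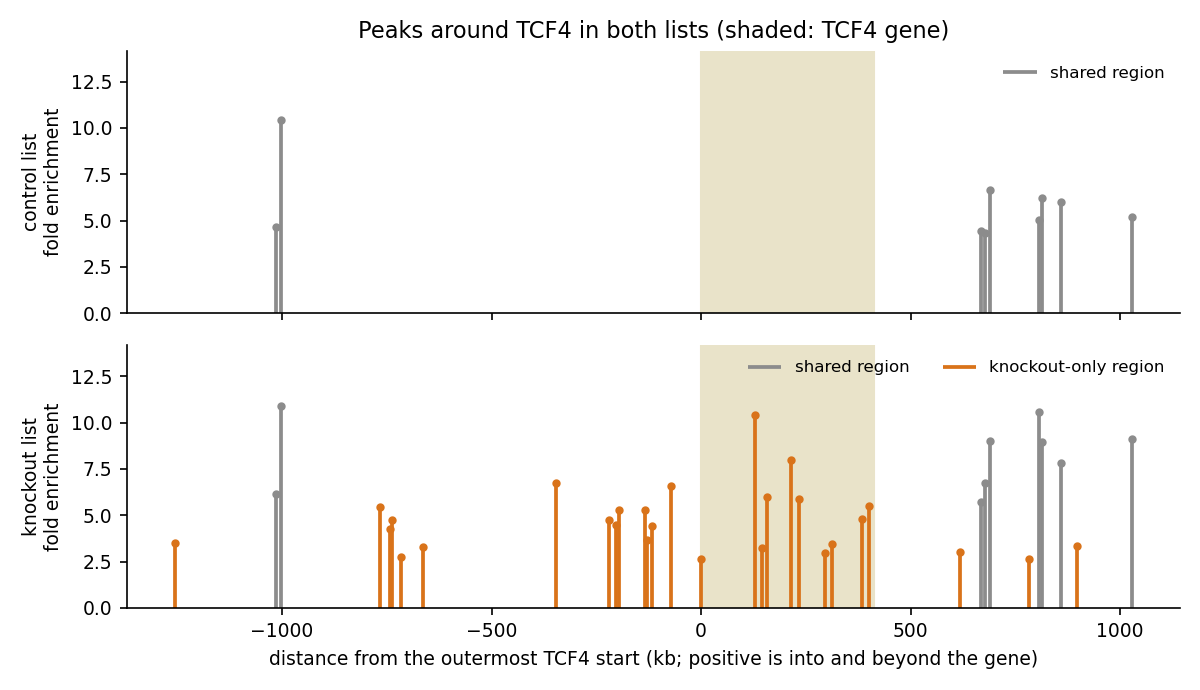
Fold enrichment (vertical axis, each list's own scale) of every peak around TCF4 in the control list (top) and knockout list (bottom), by distance in kb from the outermost TCF4 start (positive values run into the gene and beyond). The control list has no peak across the 1386 kb of the run, as the definition of a run requires. The knockout list has 24 there, up to fold 10.4.

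The run of 19 knockout-only regions spanned chr18:72811457-73949435, 1138 kb, and NETO1 was its only protein-coding gene. NETO1 encodes an auxiliary subunit of kainate-type glutamate receptors. The regions covered 30.7 kb, with fold enrichments of 2.72 to 11.7, a median of 3.61 and −log10 q of at least 5 in 8. That median was close to the 3.32 of all 235 knockout-only regions of the chromosome, which include these 19. Inside the gene lay 3 of them. The region at chr18:72832846-72835278 had fold 11.7 and pileup 43.4, the highest fold of any knockout-only region on chromosome 18, and chr18:72846102-72852326 had fold 8.81. The third had fold 3.20. The NETO1 start itself had no peak within 1 kb in either list, and the nearest region upstream of it, at fold 4.34, began 1.77 kb away and overlapped the divergent transcript NETO1-DT.

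The other 16 lay between genes, reaching 1081 kb upstream of the NETO1 start. A group of 7 regions at 396 to 472 kb from the start had folds of 2.72 to 3.45, and 4 of them overlapped LINC02582 and 1 LINC02864. A pair at 233 and 250 kb had folds of 4.89 and 7.43. By the same definition, the control list had no peak in the stretch. On 1 side no region of either list occurred for 2377 kb, up to shared regions near SOCS6, and on the other the next region was a shared one 198 kb away near FBXO15. Flanking shared regions had pileup ratios of 1.3 to 3.07 on the SOCS6 side and 1.48 to 2.52 on the FBXO15 side.

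**Figure D5:**
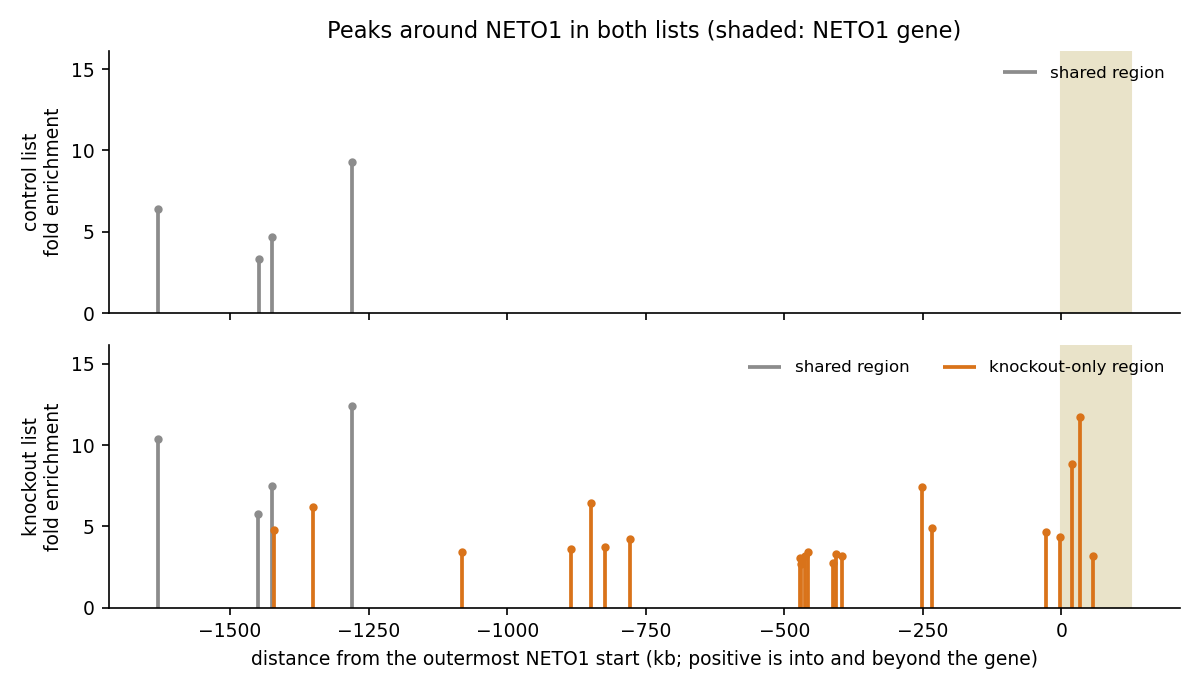
Fold enrichment (vertical axis, each list's own scale) of every peak around NETO1 in the control list (top) and knockout list (bottom), by distance in kb from the outermost NETO1 start (positive values run into the gene). The knockout list has 19 regions in the run, up to fold 11.7 inside the gene. The control list has none there, as the definition of a run requires.

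The other knockout-only runs were shorter. A run of 6 at chr18:48838741-48923738 reached from inside CTIF, which encodes a translation initiation factor of the cap-binding complex, to SMAD7, the inhibitory Smad of TGF-beta signalling. Its strongest members were at fold 8.72 in CTIF and 6.33 in SMAD7. A run of 5 at chr18:75489536-76266277 had folds of 2.70 to 7.14 and held the predicted coding gene LOC105372204 and 10 lncRNA genes. The 7 runs of 3 included 1 with fold up to 8.39 lying 19.8 kb from MALT1, the NF-kappaB paracaspase, and 1 in the zinc finger gene ZNF532 with fold up to 8.74. Others were in ZNF407 (up to 3.18), over SERPINB3 and SERPINB4 (up to 3.98), near NDUFV2 (up to 4.65) and near PIK3C3 (up to 4.20).

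Control-only runs were fewer and mostly weak. The longest, of 9 regions, spanned chr18:37253538-38370397 from CELF4, a neuronal RNA-binding protein gene, into the gene-poor stretch beyond it, with folds of 2.66 to 3.76. In NEDD4L, which encodes a ubiquitin ligase that acts on ion channels and Smads, 2 runs of 4 had folds of 2.56 to 3.01. Their −log10 q was 1.05 to 1.87, near the lowest of the list. A run of 5 about MC4R, the melanocortin receptor gene, reached fold 5.36 at chr18:60549004-60549900, and a run of 3 lay in ZBTB7C. The run of 4 nearest to PIK3C3, the class III phosphoinositide 3-kinase, was the exception in strength. Its member at chr18:41630212-41632202 had fold 11.0, pileup 48.3 and percentile 83.1 in the control list. It lay 323 kb from PIK3C3, and the nearest knockout peak was 129 kb away.

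The strongest other control-only regions lay between genes, at fold 6.66 near ATP9B, 4.85 near SMAD2 and 4.78 near ANKRD62. By fold enrichment in the knockout list, the strongest shared regions were in DLGAP1 (folds 25.5 in the control and 31.7 in the knockout list) and in PTPN2 (20.2 and 30.7). Next were regions 32.3 kb from IMPA2 (24.4 and 29.6), in DLGAP1 again (20.3 and 27) and at the start of TUBB6 (20.8 and 26.8). The control list ranked them otherwise, with a shared region in RAB31 (23.2 in the control list) above those of PTPN2 and TUBB6. The DLGAP1 region at chr18:3592405-3608345 overlapped the antisense genes DLGAP1-AS1 and DLGAP1-AS2, and DLGAP1, a synaptic scaffold gene, had no peak at its own starts. The widest shared regions were at NEDD4L (26.1 kb), MBP (21.3 kb), EPG5 (19.1 kb), DLGAP1 (15.9 kb) and NPC1 (15 kb).

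Of the 270 protein-coding genes of the chromosome, 168 (62.2%) had a peak within 1 kb of a start in both lists, beside 61.3% of all coding genes. Starts with a peak in the knockout list alone were those of TCF4, SERPINB5 and SERPINB10, 1.11% of genes beside 1.5% over all chromosomes. Starts with a peak in the control list alone were those of LDLRAD4 and ZNF521, 0.741% beside 1.66%. For SERPINB10 and ZNF521 either gene end counted as a start. Neither list had a start peak for 97 genes. Thus 5 of 270 genes had a start peak in 1 list alone, apart from PTPRM, SMAD7, SERPINB7, GNAL and NEDD4L, where a further start had a genotype-only region beside a shared one at another start.

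Among lists of chromosome 18 genes, 81 of 131 genes (61.8%) had start peaks in both lists. All 15 genes of a list on DNA replication, mitosis and repair did. The list also holds genes known mainly for other functions, such as MIB1, a ubiquitin ligase of Notch ligands. Examples were TYMS, thymidylate synthase (folds 7.79 in the control and 14.0 in the knockout list), and NDC80, a kinetochore subunit (16.1 and 16.7). All 18 housekeeping genes did, with VAPA at 18.6 and 26.5, and so did all 5 genes of cell death and survival, with BCL2 at 6.93 and 11.6 and the BH3-only gene PMAIP1 at 11.1 and 13.6. These and later examples without a genotype-only peak were named after their values were seen.

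TGF-beta and BMP genes had start peaks in both lists for 7 of 9. The receptor-activated SMAD2 had folds of 15 and 22.8, the common mediator SMAD4 13.9 and 20.5, the inhibitory SMAD7 10.3 and 14.8, and the corepressor TGIF1 19.9 and 24.7. LDLRAD4, a membrane inhibitor of this pathway, had a start peak in the control list alone, with 5 shared, 5 control-only and 1 knockout-only region in its body. SKOR2 had no peak. NEDD4L had 13 shared, 12 control-only and no knockout-only region in its 357 kb, and the control-only folds were all at or below 3.18. These 9 genes held 30 shared, 18 control-only and 5 knockout-only regions, and 12 of the 18 were in NEDD4L. Over all chromosomes 14.7% of regions were control-only and 19.6% knockout-only. In the 2 control-only runs of NEDD4L, pileups were 6.0 to 9.86, beside a lowest control pileup of 6.0 on the chromosome. Their −log10 q was 1.05 to 1.87, so the count rests largely on calls near the threshold.

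Of 10 clade B serpin genes, 2 had a start peak in the knockout list alone, beside 1.5% of all coding genes, and none in the control list alone. SERPINB7 and SERPINB8 had start peaks in both lists, SERPINB8 with folds of 14.9 and 15.7. SERPINB5, which encodes the epithelial serpin maspin, had a knockout-only start peak of fold 5.83 and pileup 20.3, and SERPINB10 1 of fold 4.75 and pileup 16.7. The SERPINB5 peak, chr18:63477707-63478698, lay inside the gene and did not cover the start at 63476958. For SERPINB10 either end of the gene counted as a start, and its peak lay 257 bp outside the gene, so it was not shown to be at the start. SERPINB3 and SERPINB4, the squamous cell carcinoma antigens, had 1 knockout-only region each in the gene, at 3.94 and 3.98, and no start peak. Because these 2 genes are near-identical copies, how reads were assigned between them is uncertain. SERPINB13 had 1 control-only region in its body at fold 3.08. SERPINB2, SERPINB11 and SERPINB12 had none.

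Of the desmosomal cadherins, which join epithelial cells, DSG2 (folds 9.43 and 17.9) and DSC2 (8.18 and 7.96) had start peaks in both lists. DSC1, DSG1 and DSG4 had no peak, DSG3 had 1 shared region in its body and DSC3 1 control-only region, at fold 4.31. None of the 4 classical and type II cadherins had a start peak. CDH2, N-cadherin, had 1 region of each class in its body, the strongest at folds 8.07 and 12.8, and CDH7 and CDH20 had no peak.

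In a list of 14 genes named neuronal, MBP alone had start peaks, in both lists. MBP encodes a protein of myelin, which glial cells form. The other 13 genes of the list had none, and DCC, CBLN2, SYT4, RIT2, ST8SIA3, GALR1 and GRP had no region at all. Of 12 developmental transcription factors, 5 had start peaks in both lists, with GATA6 at 8.66 and 14.3. TCF4 had a knockout-only start and ZNF521, a zinc finger factor of progenitor cells, a control-only start at fold 2.94. SALL3, RAX and ASXL3 had no region. ZBTB7C had no start peak but 3 shared, 3 control-only and 2 knockout-only regions in its body.

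Adhesion, matrix and cytoskeleton genes had start peaks in both lists for 7 of 11, and PTPRM, a receptor tyrosine phosphatase, had 11 shared, 2 control-only and 4 knockout-only regions in its body. EPB41L3 had none. Metabolism and transport genes had them for 11 of 15. NPC1, which exports cholesterol from lysosomes, had 3 regions of each class, and MC4R, SLC14A1, SLC14A2 and TTR had none. Src family and signalling genes had them for 8 of 11. RAB31, a small GTPase of endosomal traffic, had 11 shared and 4 knockout-only regions, and CD226 had none. Outside these lists CTIF held 11 shared, 5 control-only and 3 knockout-only regions and ZNF407 4 shared and 6 knockout-only regions.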

How the data were processed

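MDA-MB-231 control and ARID1A knockout chromatin was profiled by H3K27ac immunoprecipitation against input. Per the submitters' processing notes, the tools were Bowtie2 2.3.5.1 for alignment (genome hg38) and MACS2 2.2.6 for peak calling. Their options, the read depth and any pooling of replicates are not given in the sources used here. Each deposited list, 1 per genotype, was assigned to its group by the genotype in its name. Per the file headers, the authors gave each peak a pileup (a coverage signal), a −log10 q-value and a fold enrichment (a ratio).

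From these, peaks were merged into regions with pandas 2.3.3, numpy 2.4.6 and scipy 1.17.1 (Python 3.11.15), and bedtools 2.31.1 served to check the overlap counts. Merging, classes and runs were tested on simulated data. Figures used matplotlib 3.10.9. Genes are RefSeq protein-coding genes on GRCh38.p14, the assembly of hg38. Starts came from the RefSeq promoter table for 234 of the 270 genes of chromosome 18, and both gene ends were used for the other 36, which include SERPINB10, ZNF521 and CTIF. A region was assigned to a 5 Mb window by its midpoint. Intervals are exact (Clopper-Pearson) at 95%.

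The chromosome, its members and the gene lists were chosen with earlier results of these data known. Genes were named where they lay in genotype-only runs of at least 4 regions, at or nearest to the 5 strongest regions of each class or the 5 widest shared ones, or were list members with a genotype-only start peak, at least 3 genotype-only regions, or no peak. Further genes, such as NDUFV2, MALT1, GAREM1 and DSEL, were named after their values were seen. Alternatives were peak thresholds, overlap rules, window size and position, run spacing, start distance and the definition of strong. The values of 1 gene are not reported here.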

Additional observations from a re-analysis of the deposited data

How the results depend on the processing

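No paired analysis was possible because each genotype had 1 peak list, and for the same reason no replicate could be left out. Of 49 alternative values for 16 results, 31 stayed within the spread or the 1.5-fold limit set for them, and 18 moved. Taking 30000 peaks of each whole list with the highest −log10 q lowered the knockout-only share to 17.7% (14.1% over all chromosomes), beside a control-only share of 16.0% (14.5%), the number of knockout-only runs to 6 and the longest to 15 regions. It set the median fold at 5.14 for knockout-only and 4.19 for control-only regions. With −log10 q of at least 5 these medians were 4.80 and 4.68, and the control-only share was 8.24%. With −log10 q of at least 2 that share was 11.4%, control-only runs numbered 3 and r with gene density was −0.45. Runs with neighbours at most 100 kb apart had up to 9 knockout-only and 4 control-only regions, and control-only runs then numbered 3. Windows of 10 Mb had a highest knockout-only share of 41.9%. Calling only the upper 25% strong left 2 knockout-only and 1 control-only region. Without the 2 longest runs, an alternative chosen after seeing the data, the knockout-only share was 21.5%. The alternatives for median fold and the one without the highest window were also added then. The cause of these changes was not tested, beyond fewer peaks entering under a stricter threshold.

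Under the 5 threshold and overlap alternatives the stretches at TCF4 and NETO1 held 15 to 24 and 8 to 19 knockout-only regions. None of these alternatives could add a control peak there, so the absence of control calls was not tested by them. Library depth was not given in the sources used here. A region missing from a list may therefore be acetylated below that list's threshold, and the lowest pileup on chromosome 18 was 6.0 among control and 8.0 among knockout peaks.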
